A study of Mus musculus with 12 samples.

Results

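The kappa light chain of mouse antibodies is encoded by a locus on chromosome 6 that holds many variable (Igkv) segments, 5 joining (Igkj) segments and 1 constant gene, Igkc. Each developing B cell joins 1 Igkv segment to 1 Igkj segment, and the joined segment is transcribed together with Igkc, so the Igkv reads of a tissue record which segments its B cells and plasma cells carry. A B cell clone that expands, or that becomes plasma cells with many antibody transcripts per cell, can raise the share of the segment it carries. Described here are all mouse genes whose symbol starts with Igkv and which held 10 or more reads summed over the 12 libraries. These were 107 of 160 Igkv genes in the count tables, and of 55487 gene IDs in all.

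The tissue was the mammary gland of female C57BL/6 mice (an inbred strain) aged 84 days after birth, 4 weeks after supplementation with folic acid. The dose was 5 mg/kg for 6 libraries and 1 mg/kg for the other 6, and no group without supplementation or with another genotype was analysed here. The right thoracic fat pad was taken whole, so a library can hold RNA of fat, epithelium, muscle, vessels and any lymph node within the pad. Separate animals are not stated in the labels, so each spread and p concerns these samples and may be technical in part. Gene-assigned reads per library numbered 48165752 to 75299437. All 8 luminal, 6 basal and 8 adipocyte marker genes had reads in every library, and the summed luminal markers spanned 351 to 889 CPM (reads of a gene relative to the scaled total of its library) at 5 mg/kg, with 203 to 1287 CPM in the other group.

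No more than 8 segments took first place in a library, and the ends of their coding sequences show what separates one segment from another. Shown are the last 120 coding bases of each, on GRCm38 (the assembly also called mm10), from GENCODE M21 transcripts, 5′ to 3′ in the direction of transcription. Capitals mark the last in-frame cysteine codon, TGT or TGC, which encodes the conserved cysteine in front of CDR3, the loop that contacts antigen. The bases behind it are what the segment itself adds to that loop. The regions are chr6:67610389-67610508 (plus strand) for Igkv1-135, chr6:68631963-68632082 (minus) for Igkv10-96, chr6:67896523-67896642 (plus) for Igkv14-126, chr6:68437806-68437925 (plus) for Igkv15-103, chr6:70698948-70699067 (plus) for Igkv3-2, chr6:69607275-69607394 (minus) for Igkv4-55, chr6:70215838-70215957 (plus) for Igkv6-25 and chr6:70074024-70074143 (minus) for Igkv6-32.
Igkv1-135: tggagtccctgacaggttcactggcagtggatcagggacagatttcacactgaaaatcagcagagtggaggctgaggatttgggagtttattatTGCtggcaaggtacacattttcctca
Igkv10-96: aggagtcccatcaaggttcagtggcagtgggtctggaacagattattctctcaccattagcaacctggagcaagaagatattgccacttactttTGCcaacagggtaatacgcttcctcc
Igkv14-126: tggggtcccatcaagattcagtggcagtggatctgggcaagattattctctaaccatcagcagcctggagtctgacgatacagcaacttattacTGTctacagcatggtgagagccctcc
Igkv15-103: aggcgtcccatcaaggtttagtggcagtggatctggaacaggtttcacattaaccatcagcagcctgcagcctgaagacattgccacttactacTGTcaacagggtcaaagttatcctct
Igkv3-2: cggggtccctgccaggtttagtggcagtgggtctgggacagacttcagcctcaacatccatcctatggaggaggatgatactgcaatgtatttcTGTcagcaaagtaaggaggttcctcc
Igkv4-55: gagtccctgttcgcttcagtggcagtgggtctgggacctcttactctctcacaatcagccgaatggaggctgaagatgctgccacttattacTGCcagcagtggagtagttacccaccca
Igkv6-25: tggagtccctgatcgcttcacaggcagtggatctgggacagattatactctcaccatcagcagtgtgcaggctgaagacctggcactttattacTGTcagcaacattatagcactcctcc
Igkv6-32: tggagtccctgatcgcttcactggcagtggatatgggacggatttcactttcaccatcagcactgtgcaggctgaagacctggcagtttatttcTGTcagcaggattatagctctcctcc

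Of the 94 members annotated as functional V genes (IG_V_gene), 61 carried TGT and 33 carried TGC as this codon. Behind it came 18 to 28 bases, with exactly 23 bases in 63 members. Igkv4-55 has 25, and the other 7 segments printed above have 23. Over their whole coding sequence the 8 leading segments were 58.4% to 82.4% identical in pairs (median 63.8% over 28 pairs), and the closest pair was Igkv6-25 and Igkv6-32. Some segments have a much closer relative. Igkv10-96 and Igkv10-94 were 95.4% identical, Igkv6-25 and Igkv6-17 95.7%, Igkv1-110 and Igkv1-117 97.2%, and Igkv5-43 and Igkv5-45 98.6%. Such pairs share stretches in which an aligner cannot place a read, and reads with more than 1 place are not counted for any gene. Of the 50-base windows of Igkv10-96, 67.4% occur in no other annotated transcript. For Igkv4-55 it was 46.7%, for Igkv6-25 54.4%, and for Igkv14-126, Igkv6-32 and Igkv15-103 100%. Under 50% of windows were unique in 16 of the 107 members, and the read length is not given in the sources used here. The level of such a segment against another is therefore uncertain.

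Reads fell on functional segments. Members were 94 of 100 annotated functional Igkv genes and 13 of 60 pseudogenes, and functional genes held 99.0% of the 41490 Igkv reads. The 53 Igkv genes under 10 reads held 154 reads between them. Just inside the threshold lay Igkv3-12-1, Igkv11-106, Igkv13-82 and Igkv5-37 with 10 reads each, Igkv4-62 with 11 and Igkv12-40 with 12. Just outside lay Igkv4-56 with 9 reads, Igkv13-78-1, Igkv20-101-2 and Igkv4-75 with 8 each, and Igkv13-56-1, Igkv2-95-1 and Igkv11-114 with 7 each. Igkv14-126 had the most reads of any member, 2246, and the median member had 215. Exons of members measured 298 to 404 bases, and no member's exon overlapped another annotated gene.

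The amount of Igkv RNA differed between fat pads by far more than between the folic acid groups. Summed over the 107 members, the 5 mg/kg libraries held 48.2, 85.9, 76.8, 0.993, 0.687 and 3.0001 CPM in replicates 1 to 6. The 1 mg/kg libraries held 148, 1.97, 28.0, 1.09, 142 and 75.3 CPM. Each group thus had libraries at both ends of a 216-fold range, and the groups overlapped almost completely. On the log2(CPM + 1) scale the means were 3.68 ± 2.71 at 5 mg/kg and 4.69 ± 2.75 at 1 mg/kg (SD, n = 6 each), a difference of -1.01 that is smaller than either SD. In reads, 7 libraries had 1317 to 11372 Igkv reads and held 98.9% of all reads on members. These were replicates 1, 2 and 3 of the 5 mg/kg group and replicates 1, 3, 5 and 6 of the other. The other 5 had 48, 31 and 193 reads at 5 mg/kg (replicates 4, 5 and 6) and 117 and 72 reads at 1 mg/kg (replicates 2 and 4).

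**Figure D1:**
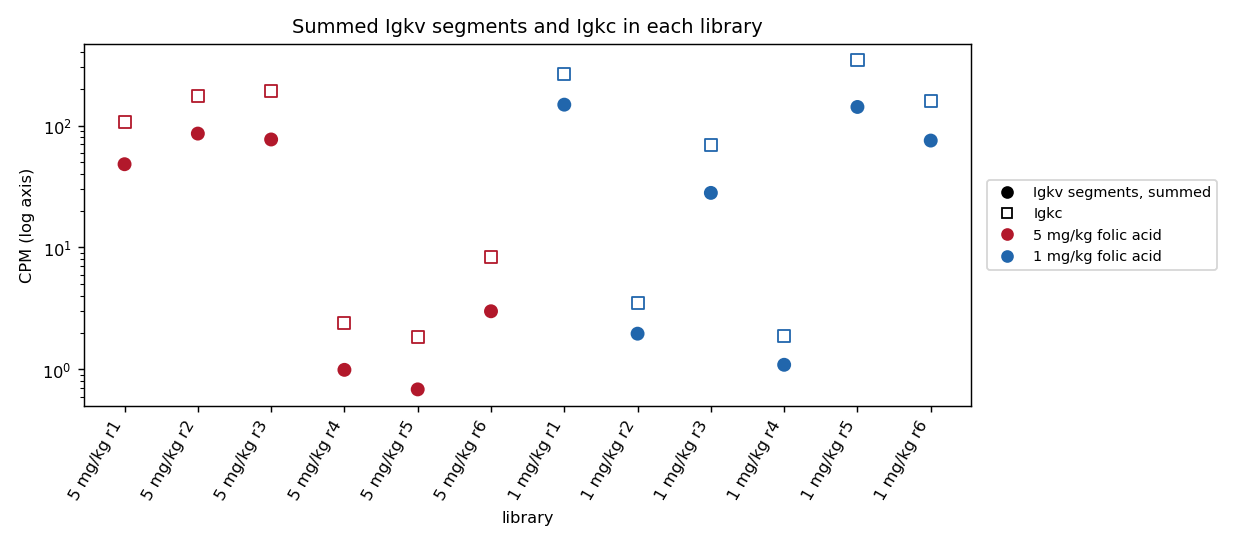
CPM (log axis) of the 107 Igkv segments summed (filled circles) and of Igkc (open squares) in each of the 12 libraries, red for 5 mg/kg and blue for 1 mg/kg folic acid, with replicates marked r. Both groups hold libraries from about 1 CPM to over 85 CPM of Igkv, and Igkc lies above Igkv by a similar factor in each.

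B cell markers moved with this level. The B cell marker level, the mean log2 CPM of 12 genes such as Cd79a and Ms4a1, was 3.41 or more in the 7 libraries with over 1000 Igkv reads and 0.0012 or less in the other 5. The 12 B cell markers summed to 10.4 to 799 CPM at 5 mg/kg, with sums of 8.45 to 1110 CPM in the other group, and none was at 0 in any library. Lymph node stroma and venule genes, such as Glycam1 and Ccl21a, summed to 2.88 to 469 CPM at 5 mg/kg, with sums of 1.81 to 582 CPM in the 1 mg/kg group and 3 of the 6 at 0 in at least 1 library. The 8 T cell genes summed to 3.01 to 197 CPM at 5 mg/kg, with sums of 3.28 to 273 CPM in the 1 mg/kg group. How far B cell number and antibody RNA per B cell each enter the Igkv level of these bulk samples was not tested. The part of lymph node content in the Igkv level was not tested.

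Across this range, Igkv RNA kept a nearly fixed proportion to the constant gene. Igkc, the kappa constant gene that every kappa transcript carries, spanned 1.84 to 191 CPM at 5 mg/kg, with 1.88 to 342 CPM in the other group. Igkv reads per Igkc read were 0.450, 0.492, 0.403, 0.410, 0.373 and 0.359 in replicates 1 to 6 at 5 mg/kg. At 1 mg/kg they were 0.557, 0.557, 0.407, 0.581, 0.415 and 0.471. The highest and the lowest library differed by 1.62 times, against 216 times for the Igkv level itself. The group means were 0.415 ± 0.049 and 0.498 ± 0.077 (SD, n = 6 each), and their difference of -0.083 exceeded the pooled SD of 0.065. The groups overlapped from 0.407 to 0.492, and the difference lay between -0.10 and -0.067 when each library was left out in turn. They were apart only among libraries under 1000 Igkv reads, where 5 mg/kg ratios were 0.359 to 0.410 and the others 0.557 and 0.581. Such ratios rest on 31 to 193 Igkv reads and carry counting error. Libraries with over 1000 Igkv reads overlapped widely, with 0.403 to 0.492 under the higher dose and 0.407 to 0.557 under the lower. The group difference was not computed for these alone.

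No Igkv segment passed the test of 5 against 1 mg/kg folic acid. Of the 107 members, 56 had enough reads to enter edgeR's quasi-likelihood test across 18647 genes, and these held 91.8% of the members' reads. By that test 0 of 56 passed a Benjamini-Hochberg adjusted p of 0.05, beside 0% of all genes, and the smallest adjusted p was 0.943 for members and for all genes. At an unadjusted p under 0.05 there were 0 members, against 1.93% of all genes (0.59% lower and 1.34% higher at 5 mg/kg). In DESeq2 1 of 104 members had an unadjusted p under 0.05, beside 1.61% of all genes, and in limma-voom 0 of 56 did, beside 1.93%. With no filter on low counts edgeR gave 2 of 107, beside 3.48%. For 0 of 56 tested members did the CPM values of the groups fail to overlap, beside 0.0429% of all genes. The log2 fold change was below 0 (lower at 5 mg/kg) in 52 of the 56, beside 52.8% of all genes, with a median of -0.79 beside -0.018. All members share the libraries and their B cell content, so their shared sign adds no support to one another. The median 95% interval of a member reached 2.61 to either side on the log2 scale, against 0.53 for all genes, so differences of several-fold in a segment's level were not detectable here.

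Igkv4-91 had the smallest p of the members. It lay at 0.565, 0.474, 0.975, 0.0207, 0 and 0.0466 CPM at 5 mg/kg and at 3.51, 0.0168, 0.277, 0.0152, 5.33 and 0.892 CPM at 1 mg/kg. The highest were replicates 1 and 5 of the 1 mg/kg group, above all others, and the remaining libraries of both groups overlapped. Its log2 fold change was -2.25 ± 1.28 (SE), with a 95% interval from -5.03 to 0.53 (edgeR unadjusted p = 0.104, adjusted p = 0.943). With the B cell marker level as a covariate it was -1.39 ± 0.58 (edgeR unadjusted p = 0.0331, adjusted p = 0.897). In that fit 2 of 56 members had an unadjusted p under 0.05, beside 4.43% of all genes, and 36 of 56 were below 0, with a median of -0.28. The share of all genes below 0 was not computed for that fit.

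The other members named for their p or fold change did not pass either. The log2 fold changes were -2.35 ± 1.51 for Igkv6-25, -1.76 ± 1.33 for Igkv6-32, -1.70 ± 1.35 for Igkv3-2 and -1.58 ± 1.15 for Igkv10-94 (SE). At the other end, among members with a mean of 1 CPM or more, were Igkv4-55 at -0.11 ± 1.47, Igkv19-93 at -0.31 ± 1.29 and Igkv1-117 at -0.32 ± 1.24. Every one of these 7 had an edgeR adjusted p of 0.943 or more.

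Which segments were used is described by the usage share, a segment's reads per kb of exon as a percent of that sum over the 107 members in the same library. No segment dominated the locus in general. Igkv10-96 had the highest mean usage share over the 12 libraries, 4.96%, followed by Igkv14-126 with 4.31%, Igkv3-2 with 4.05%, Igkv1-135 with 3.60% and Igkv5-39 with 3.44%. Then came Igkv6-32 (3.32%), Igkv4-55 (3.22%), Igkv8-30 (3.10%), Igkv6-15 (3.06%) and Igkv12-46 (3.03%). Of these 10, 9 were also among the 10 highest over the 7 libraries with over 1000 Igkv reads. There the 10 summed to 40.3% of usage on average. The exception was Igkv3-2, which came at rank 12 there. Neighbours in this order differ by much less than the same segment does between libraries.

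**Figure D2:**
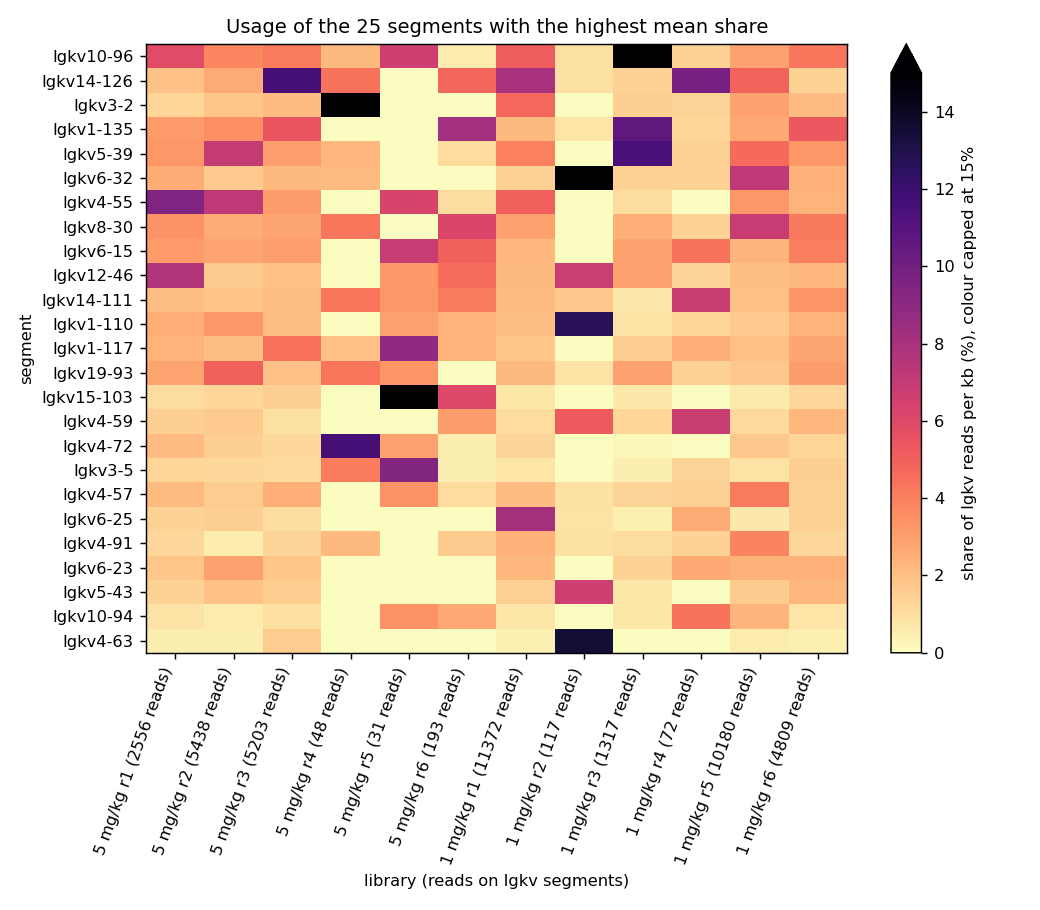
Usage share (percent of Igkv reads per kb, colour capped at 15%) of the 25 segments with the highest mean usage share (rows) in the 12 libraries (columns, with their reads on Igkv segments). The columns with over 1000 reads are filled evenly apart from a few dark cells such as Igkv10-96 in 1 mg/kg replicate 3, while columns with under 200 reads hold a few dark cells and many near 0.

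The leading segment differed from library to library. At 5 mg/kg it was Igkv4-55 in replicates 1 and 2 (usage share 9.44% and 7.18%), Igkv14-126 in replicate 3 (11.6%), Igkv3-2 in replicate 4 (31.0%), Igkv15-103 in replicate 5 (16.0%) and Igkv1-135 in replicate 6 (8.20%). At 1 mg/kg it was Igkv6-25 in replicate 1 (8.10%), Igkv6-32 in replicates 2 and 5 (17.3% and 7.21%), Igkv10-96 in replicate 3 (21.7%), Igkv14-126 in replicate 4 (9.82%) and Igkv1-135 in replicate 6 (5.33%). Igkv14-126 and Igkv1-135 led in 1 library of each group. The mean usage share of the leading segment was 13.9 ± 8.92% at 5 mg/kg and 11.6 ± 6.46% at 1 mg/kg (SD, n = 6 each), a difference of 2.32 percentage points against a pooled SD of 7.79. Without replicate 4 at 5 mg/kg the difference was -1.09 points.

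The largest of these shares rest on few reads. Igkv3-2 in replicate 4 at 5 mg/kg was 15 of 48 Igkv reads, a read share of 31.2% with an exact 95% binomial interval (Clopper-Pearson) from 18.7% to 46.3%. Igkv15-103 in replicate 5 was 5 of 31 reads (interval 5.45% to 33.7%), and Igkv6-32 in replicate 2 at 1 mg/kg was 20 of 117 reads (interval 10.8% to 25.2%). Igkv14-126 in replicate 4 at 1 mg/kg was 7 of 72 reads (interval 4.00% to 19.0%). These intervals cover counting error alone, and reads without molecular identifiers are not independent molecules. In the library with 31 reads a single read was 3.23% of them. By the approximate upper bound of 3 over the number of reads, a count of 0 there allows a read share of up to 9.68%.

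Among libraries with many reads, 2 segments stood far above their level elsewhere. The usage share of Igkv10-96 in replicate 3 at 1 mg/kg was 21.7%, from 281 of 1317 reads (read share 21.3%, interval 19.2% to 23.6%). In the other 6 libraries with over 1000 Igkv reads it was 5.91%, 3.76% and 4.12% at 5 mg/kg, with 5.13%, 2.97% and 4.27% in the 1 mg/kg group. Its close relative Igkv10-94 was at 0.719% in replicate 3. In the same library Igkv5-39 and Igkv1-135 were at 11.4% and 10.6%, their highest values of all 12 libraries.

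Igkv6-25 in replicate 1 at 1 mg/kg was at 8.10% of usage, from 950 of 11372 reads (read share 8.35%, interval 7.85% to 8.88%). In the other libraries with over 1000 reads its usage share was 1.41%, 1.48% and 1.04% at 5 mg/kg, with 0.438%, 0.645% and 1.45% in the 1 mg/kg group. It was thus 5.46 times the next highest of these libraries. The read share of its close relative Igkv6-17 was 1.96% in replicate 1, against 0.456% to 1.64% in the other libraries with over 1000 reads. Replicate 1 also held 92.4 CPM of Ighg1, the IgG1 heavy chain constant gene of switched B cells and plasma cells, against 20.2 CPM or less in every other library. Replicate 5 at 1 mg/kg, where Igkv6-32 and Igkv8-30 reached 7.21% and 6.87% of usage, held the most Ighg2c and Ighg3, 120 and 65.1 CPM. The Ighg gene named differs between these libraries, so the values do not rank them. All 8 listed heavy chain constant genes, Ighm and Ighd included, were therefore summed for each library with over 1000 Igkv reads. The sums were 386, 584 and 631 CPM in the 5 mg/kg group (replicates 1 to 3). In the 1 mg/kg group they were 863, 201, 985 and 618 CPM (replicates 1, 3, 5 and 6). Whether these heavy chain levels have a part in the segment shares was not tested.

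Leaving out the library that stands apart changed the group means of these segments. The mean usage share of Igkv10-96 at 1 mg/kg was 6.06 ± 7.84% with all 6 libraries and 2.93 ± 1.81% without replicate 3, against 3.86 ± 2.29% at 5 mg/kg (SD). For Igkv6-25 at 1 mg/kg it was 2.35 ± 2.93% and, without replicate 1, 1.20 ± 0.891%, against 0.655 ± 0.733% at 5 mg/kg. For Igkv3-2 at 5 mg/kg it was 6.01 ± 12.3% and, without replicate 4, 1.02 ± 0.975%, against 2.08 ± 1.60% at 1 mg/kg. For Igkv15-103 at 5 mg/kg it was 4.30 ± 6.09% and 1.97 ± 2.37% without replicate 5, and for Igkv6-32 at 1 mg/kg 5.20 ± 6.33% and 2.78 ± 2.51% without replicate 2. Without that library the order of the groups turned for Igkv10-96 and Igkv3-2, and the gap narrowed for the other 3 segments.

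How much a segment's usage varied among libraries with over 1000 Igkv reads differed between segments. Igkv6-15 had the narrowest range of the 20 segments most used in those 7 libraries, 2.27% to 4.02% of usage, or 1.77 times. Igkv6-23 ran from 1.35% to 2.94%, Igkv8-30 from 2.49% to 6.87% and Igkv19-93 from 1.75% to 4.96%. At the wide end were Igkv4-55 (1.02% to 9.44%), Igkv14-126 (1.35% to 11.6%) and Igkv6-25, whose highest share was 18.5 times its lowest. The median over members was 3.72 times. In these 7 libraries 79 of the 107 members had reads in each. In all 12 libraries 2 members did, Igkv10-96 and Igkv14-111.

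No segment separated the groups by its usage share. Values of the groups overlapped for all 107 members, of which 47 had the higher mean at 5 mg/kg and 60 at 1 mg/kg. For 3 members the difference of the means exceeded the pooled SD: Igkv12-44 (0.564 ± 0.501% at 5 mg/kg and 1.496 ± 1.07% at 1 mg/kg), Igkv3-12 (0.768 ± 0.610% and 1.45 ± 0.702%) and Igkv14-130 (0.010 ± 0.016% and 0.094 ± 0.091%, SD, n = 6 each). These 3 were singled out after their values were seen, and no test was made of them. Few reads bear on each. Igkv14-130 had 31 reads over all 12 libraries. The highest 1 mg/kg read share of Igkv12-44, 3.42%, was in replicate 2 with 117 Igkv reads. For Igkv3-12 it was 2.78%, in replicate 4 with 72 Igkv reads.

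Evenness of usage, as computed at full depth, depends on the number of Igkv reads. The effective number of segments is the exponential of the Shannon entropy of usage shares. With many reads it would be 107 if all members were used alike, but it cannot exceed the number of segments with reads. That number was 22, 19 and 46 in replicates 4 to 6 at 5 mg/kg, and 40 and 41 in replicates 2 and 4 at 1 mg/kg. Low values in these 5 libraries therefore do not by themselves show less even usage. The effective number was 50.02, 53.8, 53.2, 13.6, 16.3 and 30.8 in replicates 1 to 6 at 5 mg/kg, with 49.0, 20.6, 28.2, 32.9, 48.4 and 59.7 in the 1 mg/kg group. Values of 48.4 to 59.7 were found in 6 of the 7 libraries with over 1000 Igkv reads, and the seventh, replicate 3 at 1 mg/kg, had 28.2. The 5 libraries with fewer reads had 13.6 to 32.9. The group means were 36.3 ± 18.6 at 5 mg/kg and 39.8 ± 14.9 at 1 mg/kg (SD, n = 6 each), a difference of -3.53 against a pooled SD of 16.8. Within the libraries with over 1000 reads the means were 52.3 for 3 libraries at 5 mg/kg and 46.3 for 4 at 1 mg/kg, so the sign of the difference turned. Pielou evenness, the Shannon entropy over its maximum, was 0.738 ± 0.133 and 0.775 ± 0.086.

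**Figure D3:**
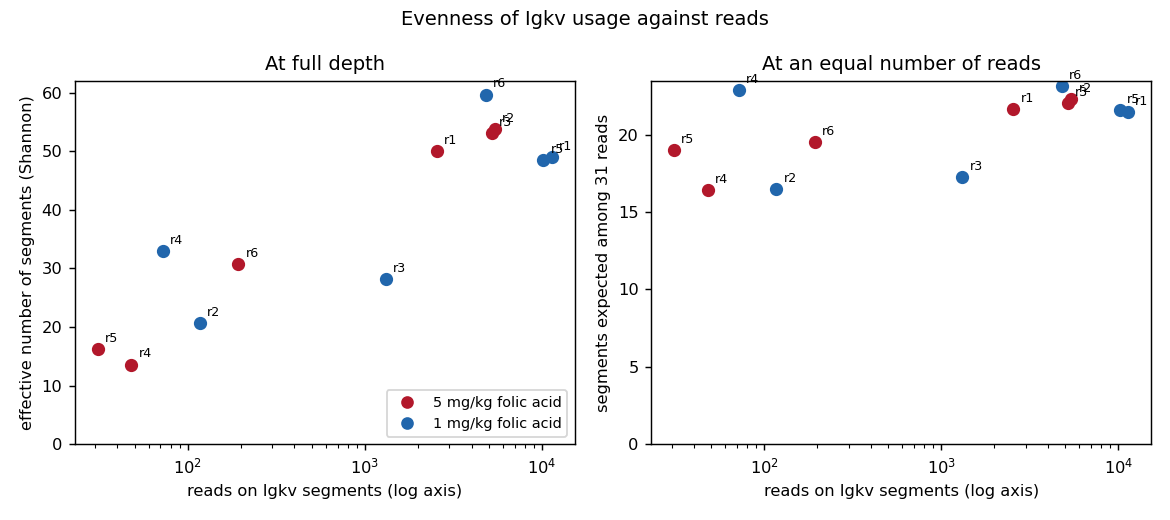
Left, effective number of segments at full depth, and right, number of segments expected among 31 reads, both against the reads on Igkv segments (log axis), 1 point per library, red for 5 mg/kg and blue for 1 mg/kg. On the left, 6 of the 7 libraries with over 1000 reads lie at 48.4 to 59.7 and all others at 13.6 to 32.9, and on the right the points lie between 16.4 and 23.1 with the groups intermixed.

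A measure that sets all libraries to the same number of reads also left the groups intermixed. Among 31 reads, the total of the shallowest library, the segments expected numbered 21.6, 22.3, 22.02, 16.4, 19.0 and 19.5 at 5 mg/kg, with 21.5, 16.5, 17.3, 22.9, 21.6 and 23.1 in the 1 mg/kg group. The lowest were replicate 4 at 5 mg/kg and replicates 2 and 3 at 1 mg/kg, the libraries led by Igkv3-2, Igkv6-32 and Igkv10-96. Replicate 4 at 1 mg/kg, with 72 reads in all, lay among the highest. The means were 20.1 ± 2.28 and 20.5 ± 2.88 (SD, n = 6 each). Among 1000 reads, the 7 larger libraries were expected to show 85.9, 85.2 and 88.4 segments at 5 mg/kg, with 83.6, 78.2, 81.4 and 89.3 in the 1 mg/kg group (replicates 1, 3, 5 and 6). The inverse Simpson number weights the most used segments and is corrected for the number of reads. It was lowest in replicate 4 at 5 mg/kg (8.81) and replicate 3 at 1 mg/kg (12.8), and highest in replicate 6 at 1 mg/kg (45.04). Other libraries under 1000 reads had 23.25 and 26.8 (replicates 5 and 6 at 5 mg/kg) and 13.6 and 39.9 (replicates 2 and 4 at 1 mg/kg). By this number the libraries with few and with many reads overlapped.

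A small set of segments covered 50% of usage in each library. In libraries with over 1000 Igkv reads it took 13 or 14 segments at 5 mg/kg, with 13, 5, 13 and 17 in the 1 mg/kg group (replicates 1, 3, 5 and 6). The 5 most used segments covered 29.7%, 26.5%, 28.7%, 57.3%, 48.1% and 33.4% at 5 mg/kg, with 30.9%, 56.8%, 50.5%, 33.5%, 27.7% and 21.2% in the 1 mg/kg group. The mean was 37.3 ± 12.5% and 36.8 ± 13.8% (SD, n = 6 each), a difference of 0.492 points that is far below the spread.

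**Figure D4:**
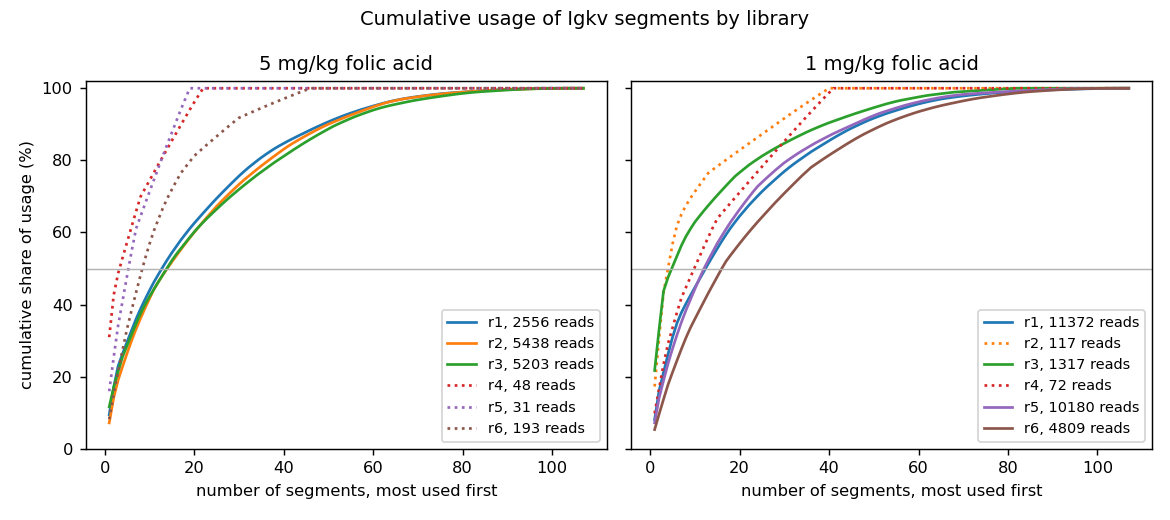
Cumulative usage share (percent) against the number of segments, most used first, for the 6 libraries at 5 mg/kg (left) and at 1 mg/kg (right), with dotted lines for libraries under 1000 Igkv reads and a grey line at 50%. Solid curves reach 50% at 13 or 14 segments on the left and at 5 to 17 on the right, where replicate 3 rises earliest of the solid curves.

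Overlap of usage was similar within and between the groups. The overlap of 2 libraries, the sum over segments of the smaller usage share, ranged from 57.6% to 79.8% for the 12 pairs between the groups among libraries with over 1000 reads. For the 9 pairs within a group it was 54.7% to 78.4%. The mean was 71.4% between and 68.7% within the groups. Over all 12 libraries, where shares from few reads overlap less, it was 46.3% over 36 pairs between and 44.8% over 30 pairs within the groups. Pairs share libraries, so no p is given.

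By family, the number before the hyphen in the symbol, the 107 members fell into 19 families. Igkv4, the largest with 29 members, took 20.6 ± 3.93% of usage at 5 mg/kg and 19.0 ± 5.94% at 1 mg/kg (SD, n = 6 each), below its 27.1% of the members. Usage was not corrected for windows shared between segments. Igkv10, with 3 members or 2.80% of them, ran from 4.47% to 23.1% in the libraries with over 1000 reads, the highest being replicate 3 at 1 mg/kg. Igkv6, with 9 members, took 2.13% to 12.4% at 5 mg/kg and 7.65% to 19.8% at 1 mg/kg. Its means of 9.18 ± 3.94% and 14.5 ± 4.14% differed by more than 1 SD with overlapping values, and replicates 1 and 2 at 1 mg/kg, the libraries with high Igkv6-25 and Igkv6-32, were its highest. In the libraries with over 1000 reads the means were 11.9% and 13.3%, and the gap narrowed from -5.29 to -1.37 points. Igkv1 took 11.2 ± 6.19% and 10.7 ± 3.57%, and Igkv3 12.9 ± 11.9% and 8.32 ± 2.96%. Igkv3 took 37.2% in replicate 4 at 5 mg/kg, the library led by Igkv3-2, and without it the 5 mg/kg mean was 8.09%, just under that at 1 mg/kg. Igkv13, of which 4 of 18 genes were members, took 0.984 ± 0.867% and 1.04 ± 0.914%.

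Used segments came from the whole length of the locus. Igkv3-2 lies 23.5 kb from Igkj1 (GRCm38 chromosome 6, 70722562 to 70722599), and Igkv1-135 lies 3112 kb away at the far end. Over the libraries with over 1000 reads they ranked 12 and 3 in mean usage share. Segments 500 to 1000 kb from Igkj1, with 19.6% of the members, took 19.0% to 28.1% of usage in the libraries with over 1000 reads. Segments 1500 to 2000 kb away, with 16.8% of the members, took 7.87% to 11.8%, less than their share of the members in each of these libraries. Pseudogenes count among the members here, and reads lost to windows shared between segments were not corrected for. The 3000 to 3500 kb bin holds a single member, Igkv1-135. A segment on the plus strand, as Igkj and Igkc are, is joined with loss of the DNA between, and one on the minus strand by inversion. Plus-strand segments were 41 of the 107 members and took 31.1% to 45.1% of usage in these 7 libraries, with 43.9 ± 9.495% over all libraries at 5 mg/kg and 38.1 ± 9.56% at 1 mg/kg (SD, n = 6 each). Pseudogenes took 0.236% to 1.19% in the 7 libraries.

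**Figure D5:**
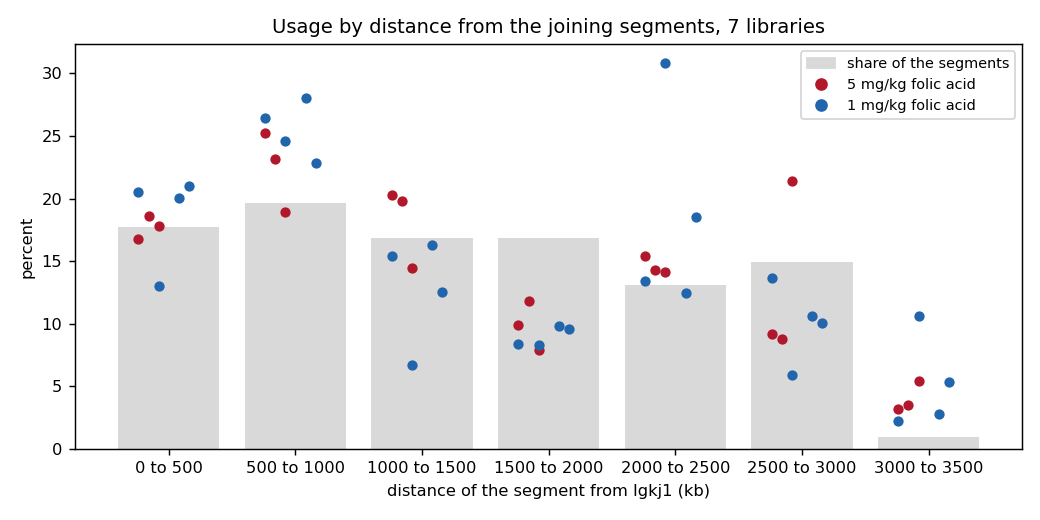
Usage (percent) of segments in bins of 500 kb from Igkj1 in the 7 libraries with over 1000 Igkv reads, red points for 5 mg/kg and blue for 1 mg/kg, with grey bars for the percent of the 107 members in each bin. Points lie below the bar from 1500 to 2000 kb in all 7 libraries, and single high points mark replicate 3 at 1 mg/kg from 2000 to 2500 kb (30.8%) and replicate 3 at 5 mg/kg from 2500 to 3000 kb (21.4%).

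Other antibody genes did not pass the test between the groups either. The constant and joining genes of the kappa locus were all tested, and 0 of 6 passed. Below 0 were 6 of 6, beside 52.8% of all genes, with a median log2 fold change of -0.56. Igkc was at -0.80 ± 1.28 (SE, edgeR adjusted p = 0.943). Reads assigned to joining segments were scarce, with the highest mean CPM for Igkj5, 1.86. Of the lambda light chain genes, the alternative to kappa, 0 of 7 tested passed (median -0.75), and Iglc3 spanned 0.207 to 31.2 CPM at 5 mg/kg, with 0.134 to 38.4 CPM in the other group. Of the heavy chain constant genes 0 of 7 passed (median -1.60), and Ighg3 had the smallest p, at -2.66 ± 1.63 (edgeR adjusted p = 0.943).

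Genes that join, switch or transcribe antibody segments gave 0 calls as well. Of the V(D)J recombination genes 0 of 8 tested passed (median -0.12). Rag1 and Rag2, which cut the segments in developing B cells, reached at most 0.313 and 0.0443 CPM in any library and were too low to be tested. Of 8 tested genes of germinal centres and hypermutation, where B cells mutate their segments, 0 passed (median -0.081). Of the 3 genes listed for octamer-dependent transcription from Igkv promoters 0 passed (median -0.57). Among them the coactivator Pou2af1 lay at 0.166 to 30.4 CPM under 5 mg/kg, with 0.182 to 41.95 CPM in the other group. Of the 11 tested plasma cell genes 0 passed (median -0.17). Jchain, which links the units of secreted IgM and IgA, was highest in replicate 5 at 1 mg/kg, with 38.5 CPM. Over the 12 libraries the V(D)J genes summed to 79.7 to 115 CPM and the germinal centre genes to 48.3 to 72.9 CPM. The plasma cell genes summed to 123 to 283 CPM. B cell markers spanned 8.45 to 1110 CPM, so the medians of these flatter lists say little about B cells alone.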

How the data were processed

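RNA was measured in 12 mammary gland libraries, 6 per folic acid dose. Per the labels' protocols, RNA came from the mirVANA kit and libraries from the TruSeq RNA v2 kit. The authors deposited raw read counts per Ensembl gene, made with STAR, HTSeq 0.6.1 and the mm10 build (named in the submitters' processing notes). The sources used here give no annotation, STAR version or strand setting. The 5 tally lines for reads of no gene held 16.7% to 35.7% of reads, of which multiply aligned reads were 8.30% to 10.5% of the total, and were left out. Symbols were matched for 55141 of 55487 IDs; all 160 Igkv genes had coordinates and sequence in GENCODE M21 (GRCm38).

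Over 66 pairs of libraries the lowest chi-square per degree of freedom was 41.7, so none was a copy of another within sampling noise. Groups were compared in edgeR 4.0.16 under R 4.3.3, using filterByExpr, TMM scaling and robust quasi-likelihood fits over all genes, with Benjamini-Hochberg adjustment. DESeq2 1.42.0 and limma 3.58.1 were alternatives. The fit was checked on simulated data. CPM were computed from TMM library sizes. Usage shares divide reads by exon length; scores over the members get no test. Alternatives were other scalings, filters, read minimums, share definitions, a B cell covariate and leaving out each library.

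Members and gene lists were chosen with earlier results of these data known. Named were the 10 segments with the highest mean usage share, the leading segment of each library, the 5 smallest p, the 3 highest and 3 lowest fold changes at a mean of 1 CPM or more, segments at 3 times any other library with 50 reads or more, and those near the threshold of 10 reads.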

Additional observations from a re-analysis of the deposited data

Results flagged for a closer look

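In each group of 6 libraries, 5 summary values and the usage shares of the 10 most used segments were checked for a library far from the rest by Dixon's gap criterion. Of 30 such checks 5 marked a library. Chance marks about 1 in 20 groups, but that rate does not apply to segments chosen for a high mean, which a single library can raise. The usage share of the leading segment in replicate 4 at 5 mg/kg was 31.0%, with the next highest library of its group at 16.0%. The same reads marked this library for Igkv3-2, the segment that led it, with 31.0% against 2.08% in the next library. Igkv10-96 in replicate 3 at 1 mg/kg was at 21.7%, with the next at 5.13%. Replicate 2 at 1 mg/kg was marked for Igkv6-32, with 17.3% against 7.21%, and for Igkv12-46, with 6.71% against 2.94%. Without it the mean usage share of Igkv12-46 at 1 mg/kg fell from 2.91% to 2.15%. Replicate 4 at 5 mg/kg and replicate 2 at 1 mg/kg had 48 and 117 Igkv reads, and replicate 3 at 1 mg/kg had 1317.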

How the results depend on the processing

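No member and no gene passed an adjusted p of 0.05 under DESeq2, limma-voom, other scalings, no filter on low counts, the B cell covariate or without any 1 library. Without the filter 2 members had an unadjusted p under 0.05, beside 3.48% of all genes. Descriptive differences moved by less than the spread between libraries in every alternative run, but signs turned. The difference in effective number of segments ranged from -7.38 to 1.00 when each library was left out, with positive values without replicate 4 or 5 at 5 mg/kg or replicate 6 at 1 mg/kg, and was 6.00 in libraries with over 1000 Igkv reads. The leading segment's difference ranged from -1.09 to 4.35 points and was -1.17 in those libraries. The overlap within minus between groups ranged from -2.51 to 0.11 points, and the summed log2 level difference from -1.73 to -0.42. The mean, family and pooled shares without single libraries, and the Igkv6 family in the larger libraries, were alternatives chosen after seeing the data. No paired analysis was possible because the replicate numbers only name the libraries and the labels tie none to an animal, litter or batch. The number of Igkv reads limits the shares in 5 libraries.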

Other observations

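The ranking of segments in a group depends on how libraries are weighted. With libraries weighted equally, Igkv3-2 came first at 5 mg/kg with a mean usage share of 6.01%, followed by Igkv4-55 with 4.50% and Igkv15-103 with 4.30%. With all reads of the group pooled and divided by exon length, Igkv14-126 came first with 6.02%, followed by Igkv4-55 with 5.90% and Igkv5-39 with 4.61%. At 1 mg/kg Igkv10-96 came first by equal weights with 6.06% and Igkv14-126 by pooled usage with 5.38%. The lead of Igkv14-126 at 5 mg/kg rests on replicate 3, which held 589 of its 787 reads, and without that library its pooled usage was 2.47%. Igkv4-55 had more reads there, 817, before division by exon length.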
